A study of Mus musculus with 14 samples.

Results

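Cytosolic ribosomal protein genes were followed in mouse macrophages exposed to interleukin 4 (IL4) in culture and in leukemic bone marrow. Genes were taken by symbol: Rpl or Rps followed by a digit, or Rplp0, Rplp1, Rplp2 or Rpsa, leaving out the Rps6k kinases (8 symbols) and symbols holding "-ps" (4 symbols). This gave 61 of the 9474 genes in each deposited table, 33 with large-subunit and 28 with small-subunit symbols. Of these, 56 encode canonical ribosomal proteins, out of 77 canonical genes whose symbols fit the rule. The other 5 fit the rule by name but are not on the canonical list, and are called like-named here: Rpl22l1, Rpl36al, Rpl7l1, Rps19bp1 and Rps27l.

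RNA was sequenced from 14 libraries in separate culture and marrow experiments. In culture, monocytes from C57BL/6 marrow were grown for 7 days with CSF1, the macrophage growth factor, either alone (4 control libraries) or together with murine IL4 at 20 ng/mL (4 IL4 libraries). CSF1 is stated as 25 ng/mL in the growth protocol but 20 ng/mL in the series design. In marrow, cells positive for the macrophage surface protein F4/80 were sorted 12 days after C57BL/6J mice received acute myeloid leukemia (AML) cells carrying an empty vector (3 control libraries) or an IL4 cDNA (3 IL4 libraries). All marrow libraries therefore came from leukemic mice, and the IL4 was secreted by the transplanted cells. The design text calls the control AML cells wild type; the sources used here do not give their oncogene, the age of the mice or any pooling of animals. Nothing in the labels says that libraries of a group came from separate cultures or animals, and the spread behind each p-value may be technical.

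The ribosome is the particle that translates mRNA into protein. Its small subunit decodes the mRNA, and its large subunit joins the amino acids, with a flexible stalk (Rplp0, Rplp1 and Rplp2) that recruits elongation factors. Ribosomal protein genes are known for being transcribed together, and many of their mRNAs begin with a terminal oligopyrimidine (TOP) stretch through which mTORC1 and LARP1 set their translation and stability. In macrophages, IL4 acts through STAT6 and is known for the alternative activation program.

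The deposited values are log2 of whole reads plus 0.5, shifted by a constant for each gene and each library, so levels are compared between libraries of a gene and never between genes. Whole reads were recovered for 9393 genes, 57 members among them; the exceptions were Rpl13a, Rpl4, Rpl8 and Rps3, for which only log2 values were used. Recovered reads summed to between 470171 and 762739 in a library, and the median gene had 23 to 41 of them. Culture control 4 stood apart: 51 of 61 members were below the mean of the culture controls there, against 17 to 23 members in the other 3 culture controls. Over all genes both culture libraries numbered 4 differed most from their group: chi-square per degree of freedom was 3.12 to 3.81 for pairs with control 4 and 2.56 to 3.40 for pairs with IL4 library 4, against 1.37 to 1.87 and 1.25 to 1.34 for the other pairs. Macrophage markers with recovered reads (8 of the 11 measured) summed to 90.6 to 101 reads per 10000 in culture controls, 50.6 to 66.2 in culture IL4, 6.07 to 7.32 in marrow controls and 4.07 to 9.32 in marrow IL4 libraries. Emr1, which encodes F4/80, was at log2 8.95 ± 0.61 (SD, n = 3) in marrow controls and 9.76 ± 0.66 (n = 3) in marrow IL4 libraries, below 14.21 ± 0.13 (n = 4) in culture controls. In bulk samples such as these, fewer cells of a type and less RNA per cell cannot be told apart.

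Some start sites of members hold a pyrimidine run, a sequence feature that the symbol rule did not use. RefSeq promoter entries (build GRCm38.p6) matched 44 of the 61 members. Windows of 30 bases, from 20 before to 10 after the annotated start, held a run of at least 8 pyrimidines (C or T, on the sense strand) in 22 of the 44 members. The same run occurred in 14.5% of 27025 genes with an entry and in 15.5% of the 7322 such genes in the deposited tables; no test was made of the difference. The 5 windows below are printed because they show members with and without the run that differ in the marrow results; capitals mark the run, and each sequence reads 5′ to 3′ along the gene's strand.
Rps6 (chr4:86857358-86857387, minus strand): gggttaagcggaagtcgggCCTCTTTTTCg
Rps9 (chr7:3704021-3704050, plus strand): gtccaaccgccttgTCTCTCTTTgtctcgg
Rps18 (chr17:33955656-33955685, minus strand): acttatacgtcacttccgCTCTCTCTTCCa
Rplp2 (chr7:141447631-141447660, plus strand): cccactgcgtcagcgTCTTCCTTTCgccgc
Rpsa (chr9:120127746-120127775, plus strand): tggctgtgggttatttaaggacgtcatttc
Rps6, Rps9 and Rps18 hold runs of 10, 9 and 11 pyrimidines, and Rplp2 a run of 10, while the window of Rpsa holds none of that length. A run outside the window was not sought, so this does not show that Rpsa mRNA lacks a TOP stretch. The letters CGGAAG, the core of sites bound by ETS factors, were found on either strand of the 300-base entries in 28 of 44 members (63.6%), against 18.8% of all genes with an entry and 39.4% of the genes in the tables. On the other strand these letters read CTTCCG, so a match can overlap a pyrimidine run. A match is a description of the letters and not evidence of a site in use.

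In marrow, ribosomal protein mRNAs were higher where the leukemic cells made IL4. Among the 61 members, 14 rose and 0 fell (limma, adjusted p below 0.05), which is 23.0% of the members, while 6.7% of all 9474 genes rose and 11.5% fell. At an unadjusted p below 0.05, 27 members were higher and 0 lower, against 12.9% and 19.6% of all genes. With weights from the read counts 19 of 57 members rose and 0 fell, against 9.53% and 15.2% of all genes. Over the members the median log2 fold change (IL4 minus control) was 0.38, and over all genes -0.06. Of the members, 53 lay above 0 (86.9%), against 45.2% of all genes, and 8 below 0, against 54.8%. In 27 members (44.3%) every IL4 library was above every control, against 15.5% of all genes, and in 0 members was every IL4 library below (22.1% of all genes).

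The 14 that rose were 9 small-subunit genes (among them Rpsa, Rps3, Rps6, Rps7, Rps9, Rps14, Rps18 and Rps19) and 5 large-subunit genes (Rpl3, Rpl13a, Rpl32, Rplp0 and Rplp1). Their rises were small, 1.31-fold to 1.66-fold (log2 0.39 to 0.73). With each library centred on its median over all genes, all 14 rose and 21 members did so in all (34.4%, against 9.45% of all genes), while 0 fell (8.92% of all genes). The count rests on few libraries: leaving out marrow control 1, 2 or 3 left 3, 8 and 8 members that rose (4.67%, 4.84% and 4.5% of all genes). Leaving out IL4 library 1, 2 or 3 left 14, 7 and 5 (5.64%, 5.25% and 4.19% of all genes). Without control 1 the 3 of 61 members were thus close to the share of all genes. The median log2 fold change over the members stayed between 0.34 and 0.44 in these 6 fits.

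**Figure D1:**
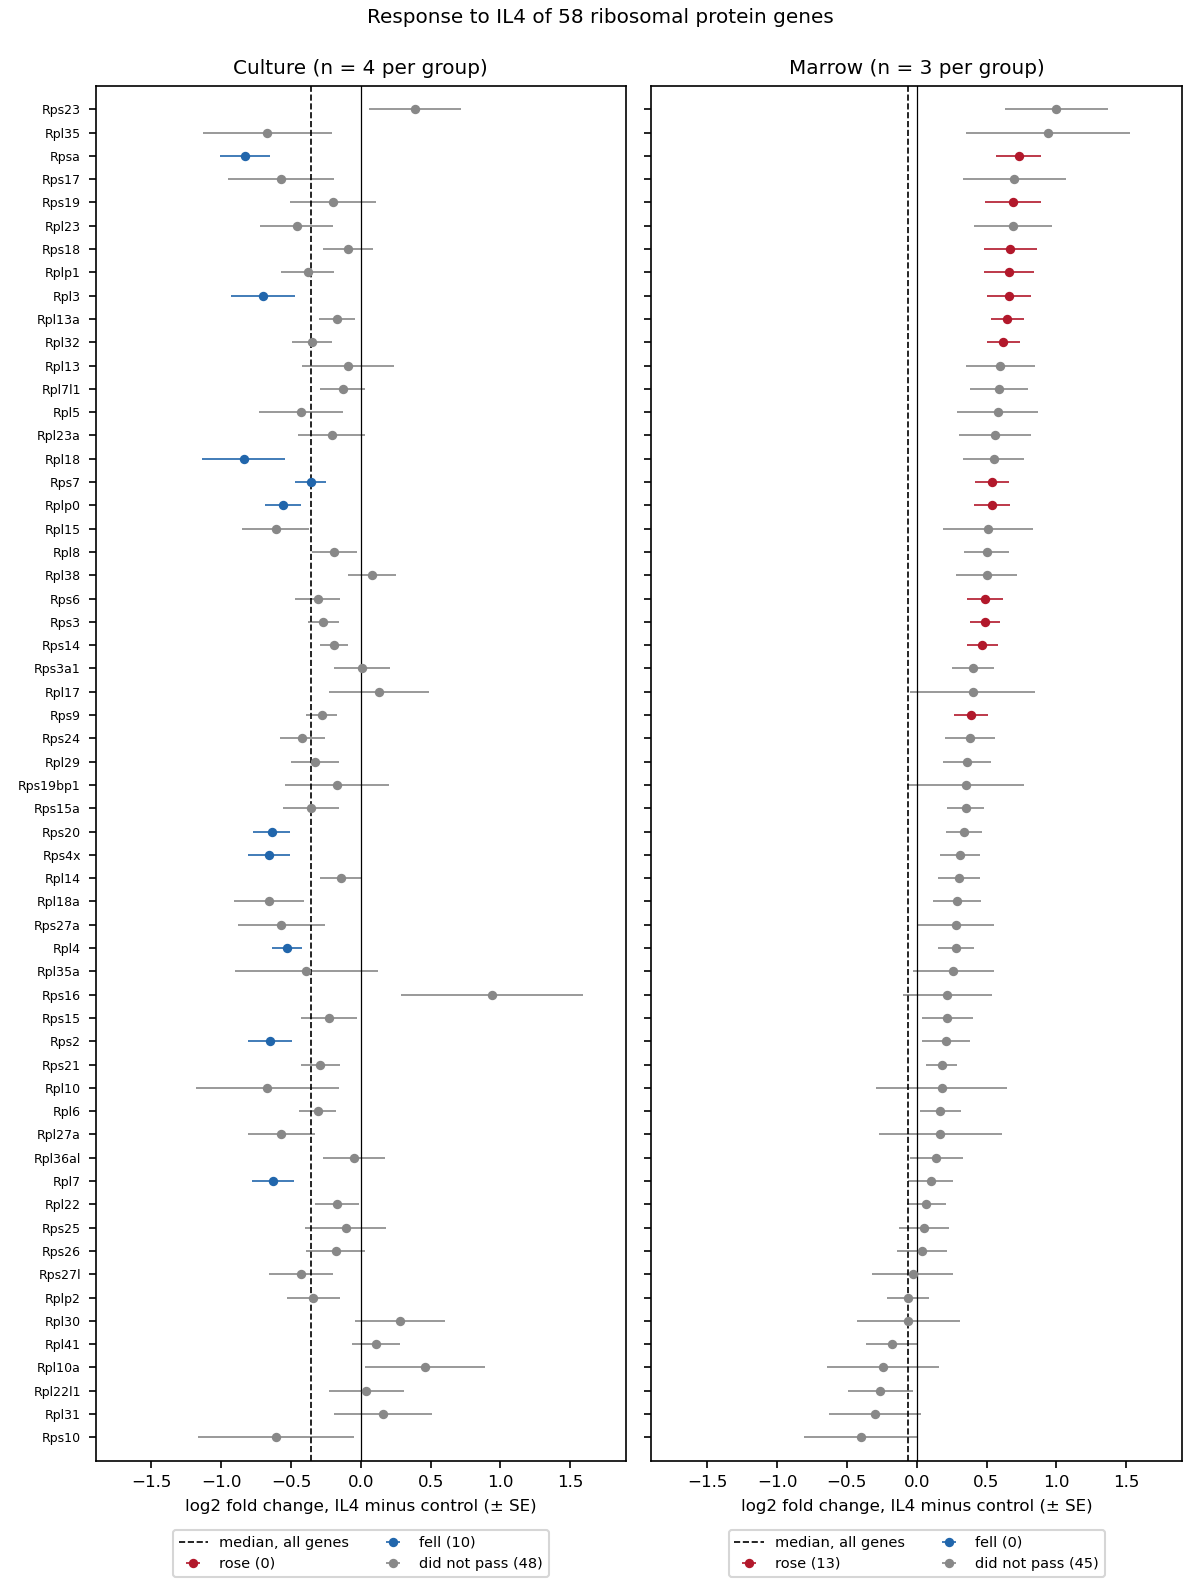
Log2 fold change (IL4 minus control, horizontal axis, ± SE) of 58 of the 61 ribosomal protein genes, ordered by the marrow value, in culture (left, n = 4 per group) and marrow (right, n = 3 per group). Colours mark adjusted p below 0.05 and the dashed line is the median of all genes; 13 of the genes shown are red in marrow and 10 blue in culture, where the dashed line itself lies at -0.36.

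Among small-subunit genes, Rpsa rose most. Rpsa (chromosome 9, 120127689 to 120132369, plus strand) encodes a protein also known as the laminin receptor. Marrow controls 1 to 3 had log2 values of 7.43, 7.14 and 7.52, and the IL4 libraries, in order, 7.88, 8.10 and 8.30, from 109 to 152 and 161 to 311 reads. The groups did not overlap, and the log2 fold change was 0.73 ± 0.16 (SE, adjusted p = 0.0115), which passed in each of the 13 alternatives run for it. Rps19, the gene most often mutated in Diamond-Blackfan anemia, had log2 values of 3.33, 3.53 and 3.43 in controls and 4.14, 4.12 and 4.11 in IL4 libraries. The 3 IL4 libraries were nearly equal and all above the controls, with a log2 fold change of 0.69 ± 0.20 (adjusted p = 0.0425). That call was lost on leaving out any of the 6 libraries (adjusted p 0.0805 to 0.11). Rps18, a protein of the small subunit's head, had values of 5.44, 5.57 and 5.88 in controls and 6.01, 6.34 and 6.56 in IL4 libraries. Again every IL4 library was higher (0.67 ± 0.19, adjusted p = 0.037), but 79.4% of the 50-base words of Rps18 occur in another annotated gene, so its reads could be split by the counting.

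Among large-subunit genes, Rpl13a, Rpl3 and Rpl32 rose beside the stalk genes Rplp0 and Rplp1. Rpl13a is known in monocytes as a ribosomal protein released after interferon to silence inflammatory mRNAs. Its log2 values were 9.84, 9.95 and 9.90 in marrow controls and 10.46, 10.67 and 10.5 in IL4 libraries. The groups were well apart, with a log2 fold change of 0.65 ± 0.12 (adjusted p = 0.00566), and the rise passed in each of the 12 alternatives run for it. Rpl3, which lies near the site of peptide bond formation, had values of 6.05, 6.20 and 6.23 in controls and 6.59, 7.06 and 6.81 in IL4 libraries. These groups did not overlap either (0.66 ± 0.16, adjusted p = 0.0182), nor did those of Rpl32 (0.62 ± 0.12, adjusted p = 0.00766).

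Of the stalk proteins, Rplp0 and Rplp1 rose in marrow and Rplp2 did not pass. Rplp0, the anchor of the stalk, had log2 values of 8.30, 8.42 and 8.11 in controls and 8.65, 8.90 and 8.90 in IL4 libraries (0.54 ± 0.13, adjusted p = 0.0231). Rplp1 had 5.37, 5.66 and 5.17 in controls and 5.86, 6.18 and 6.13 in IL4 libraries (0.66 ± 0.18, adjusted p = 0.0325). For both, the lowest IL4 library was above the highest control. Rplp2, the dimer partner of Rplp1, had 6.67, 6.76 and 6.72 in controls and 6.51, 6.91 and 6.55 in IL4 libraries. Its groups overlapped and its log2 fold change was -0.06 ± 0.15 (adjusted p = 0.824); whether Rplp1 and Rplp2 differ in response was not tested.

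Other gene lists moved with IL4 in marrow, where 6.7% of all genes rose and 11.5% fell. Cell cycle genes fell in 22 of 26 cases with 0 rises, and their summed level went from 102 to 113 reads per 10000 in controls to 51.2 to 58.5 in IL4 libraries. The measured erythroid markers, Car2 and Tfrc (2 of 11 listed), fell from 16.1 to 16.7 reads per 10000 to 2.16 to 2.99, and the 3 measured B cell markers of 9 fell from 1.74 to 1.97 to 0.51 to 0.918. Il7r, the only T and NK cell marker measured of 7, fell from 0.404 to 0.591 to 0.0411 to 0.0638. Of the 3 measured progenitor and blast markers of 9, Sox4 and Cd93 fell (Cd93 not with centred libraries, limma adjusted p = 0.0689), and the summed level went from 2.02 to 3.18 to 1.55 to 1.92. Of 4 measured neutrophil markers of 11, Ngp fell (-0.89 ± 0.20, adjusted p = 0.0139) and the others did not pass. S100a8 and S100a9 were at log2 12.28 ± 0.15 and 13.22 ± 0.10 in controls (SD, n = 3). In IL4 libraries they were at 11.92 ± 0.15 and 12.96 ± 0.14 (n = 3, limma adjusted p = 0.118 and 0.27). Csf3r went the other way (0.44 ± 0.28, adjusted p = 0.315), from 3.56 to 5.54 reads per 10000 in controls to 4.19 to 9.48 in IL4 libraries. Of the 11 measured macrophage markers 4 rose (Mertk, C1qa, C1qb and C1qc) and 4 fell (Csf1r, Cd68, Fcgr1 and Lyz2). In marrow controls Mertk had 0 to 3 reads, C1qa 5 to 8, C1qb 4 to 5 and C1qc 2 to 8. The neutrophil markers S100a8, S100a9, Ngp and Csf3r had mean log2 values of 0.72, 0.51, 2.03 and 3.99 in culture controls. Their means in marrow controls were 12.28, 13.22, 13.95 and 6.3. The part of all these lists in the rise of the ribosomal protein genes was not tested.

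In culture, ribosomal protein genes moved with the bulk of all genes. On the deposited scale 12 of 61 members fell (19.7%) and 0 rose (limma, adjusted p below 0.05), where 32.6% of all genes fell and 7.96% rose. At an unadjusted p below 0.05, 20 members (32.8%) were lower and 0 higher, against 40.2% and 9.49% of all genes. With weights from the read counts 15 of 57 fell and 0 rose, against 33.6% and 8.18%. Over the members the median log2 fold change was -0.33, and over all genes -0.36. Centring each library on its own median removes that common shift, and then 0 members fell (12.7% of all genes did), only Rpl41 rose (adjusted p = 0.047; 14.4% of all genes rose), and the members' median was 0.03. In 13 members (21.3%) every IL4 library lay below every control, against 30.2% of all genes, and in 0 members above (7.49% of all genes). Values below 0 on the deposited scale were found in 51 members (83.6%), against 74.7% of all genes, and values above 0 in 10, against 25.3%. Other scalings lay between: 5 members fell with quantile normalization (14% of all genes) and 8 with libraries scaled on summed reads (19.5% of all genes). Cell cycle genes fell in 24 of 26 cases in culture, from 15.6 to 46.8 reads per 10000 in controls to 9.09 to 15.2 in IL4 libraries. Of the 11 measured macrophage markers 9 fell. Several markers that fell in marrow rose in culture. Car2 and Tfrc went from 0.729 to 1.84 reads per 10000 to 5.74 to 15.4, and Il7r from 1.06 to 4.98 to 7.25 to 10.5. Of the B cell markers Blnk and Cd22 rose and Cd79b fell, with sums of 1.73 to 2.5 in culture controls and 3.1 to 3.86 in culture IL4. The part of these lists in the members' values was not tested.

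**Figure D2:**
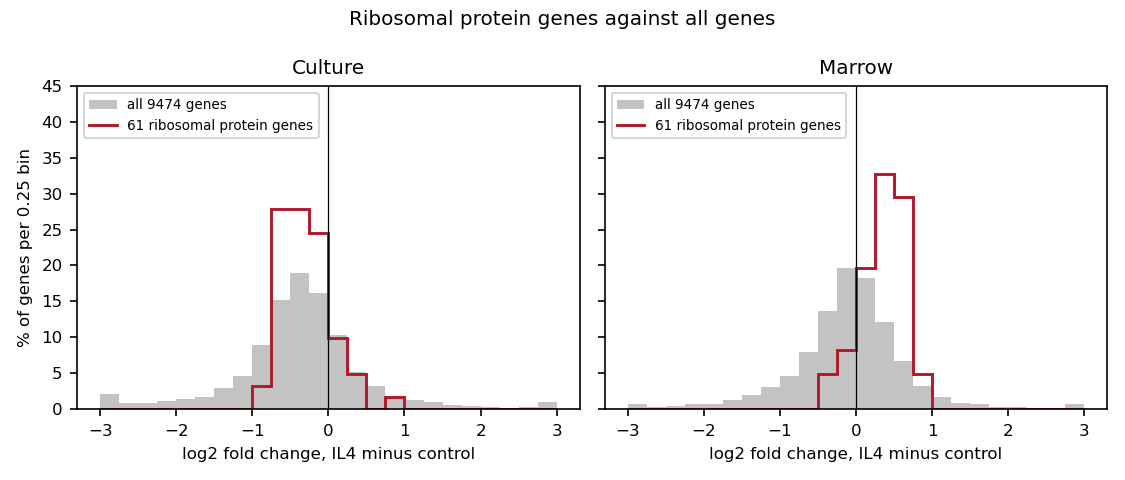
Share of genes (vertical axis, %) in bins of 0.25 of the log2 fold change (horizontal axis) for all 9474 genes (grey) and the 61 ribosomal protein genes (red line), in culture and marrow; values beyond -3 or 3 are counted in the end bins. The members' median lies at -0.33 in culture, beside -0.36 for all genes, and at 0.38 in marrow, beside -0.06.

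The 12 that fell on the deposited scale included Rpl18, Rpsa, Rpl3, Rps4x, Rps2, Rps20, Rpl7, Rplp0, Rpl4 and Rps7, with log2 fold changes of -0.84 to -0.36. Among those whose groups did not overlap, Rpsa fell most. Controls 1 to 4 had log2 values of 7.01, 6.98, 7.17 and 6.33, and the IL4 libraries, in order, 6.04, 6.12, 6.17 and 5.86. The groups did not overlap (-0.83 ± 0.18, adjusted p = 0.00526), although control 4 was close to the IL4 libraries, and after centring the change was -0.47 (adjusted p = 0.0532). Rps20, a protein of the small subunit's head, had 6.52, 6.49, 6.61 and 6.14 in controls and 5.72, 5.88, 5.82 and 5.76 in IL4 libraries. Every IL4 library was lower (-0.64 ± 0.13, adjusted p = 0.00378; 0.102 centred). Rps4x, an X-linked small-subunit gene, had 5.47, 5.66, 5.76 and 5.69 in controls and 4.97, 5.24, 5.04 and 4.68 in IL4 libraries. Rps2, which lines the mRNA entry channel, had 7.96, 7.91, 7.95 and 7.28 in controls and 7.17, 7.05, 7.13 and 7.16 in IL4 libraries. Neither pair of groups overlapped, with log2 fold changes of -0.66 ± 0.15 (adjusted p = 0.0064) and -0.65 ± 0.16 (adjusted p = 0.00914).

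The large-subunit genes with the largest falls in culture were less steady. Rpl18 had log2 values of 4.18, 4.23, 3.94 and 4.23 in controls and 3.96, 3.73, 2.46 and 3.07 in IL4 libraries, from as few as 6 reads in IL4 library 3. The groups overlapped slightly, and the change of -0.84 ± 0.30 (adjusted p = 0.0469) did not pass in 11 of 16 alternatives (adjusted p 0.0217 to 0.299 over all 16). Rpl3 had 6.18, 6.54, 6.46 and 5.51 in controls and 5.5, 5.44, 5.81 and 5.13 in IL4 libraries. Its groups overlapped through control 4 (-0.70 ± 0.23, adjusted p = 0.0341). The stalk genes had culture log2 fold changes of -0.56 ± 0.13 for Rplp0 (adjusted p = 0.00796), -0.38 ± 0.19 for Rplp1 (adjusted p = 0.147) and -0.34 ± 0.19 for Rplp2 (adjusted p = 0.17). Without culture control 4, 19 of 61 members fell, against 33.8% of all genes, and Rplp1 was among them (limma adjusted p = 0.0222). Without both culture libraries numbered 4, 16 fell, against 34.6% of all genes.

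The response to IL4 differed between culture and marrow in 24 of the 61 members (39.3%), each with a lower signed log2 fold change in culture than in marrow. The test was the interaction term of a limma model over all 14 libraries, and 16.6% of all genes passed in that direction. In the opposite direction 0 members passed, against 6.45% of all genes. At an unadjusted p below 0.05 that count was also 0 (9.89% of all genes), and so was the adjusted count with read-count weights (6.44% of all genes). The median difference, culture response minus marrow response, was -0.73 over the members and -0.30 over all genes. It lay below 0 in 55 members (67.6% of all genes) and above 0 in 6 (32.4% of all genes). With centred libraries 14 members passed (23.0%, against 9.5% of all genes), 0 passed in the opposite direction (9.38% of all genes), and the medians were -0.48 and -0.05. Of the 24, 12 also rose in marrow, 12 also fell in culture, and 5 passed in neither experiment alone. The sign does not give the size: on the deposited scale the absolute change was larger in culture in 12 of the 24 and larger in marrow in the other 12, while after centring it was larger in marrow in 23.

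The smallest interaction p belonged to Rpsa, with a difference of -1.56 ± 0.26 (SE, adjusted p = 0.000772). Rplp0 followed with -1.10 ± 0.19 (adjusted p = 0.00103). Rps7, a small-subunit protein that can bind the p53 regulator MDM2, had log2 values of 8.45, 8.36, 8.30 and 8.09 in culture controls and 7.92, 8.04, 7.86 and 7.95 in culture IL4 libraries. In marrow it had 8.80, 8.86 and 9.0 in controls and 9.31, 9.55 and 9.40 in IL4 libraries. Its groups were apart in both experiments, in opposite directions on the deposited scale, and the difference was -0.89 ± 0.16 (adjusted p = 0.00119). Rps20 had a difference of -0.99 ± 0.18 (adjusted p = 0.00127), with marrow values of 7.01, 6.96 and 6.94 in controls and 7.18, 7.44 and 7.31 in IL4 libraries. These 4 genes passed in each of the 22 alternatives run for the interaction. Rpsa, Rpl3, Rplp0 and Rps7 were among the members that fell in culture and rose in marrow on the deposited scale. How many of all genes did both was not counted, and none of the members' culture falls was kept after centring. Values below 0 in culture and above 0 in marrow were found on the deposited scale in 48 of 61 members (78.7%), against 31.1% of all genes. On that scale 74.7% of all genes lay below 0 in culture. This count was not made with centred libraries, where the members' culture median was 0.03.

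**Figure D3:**
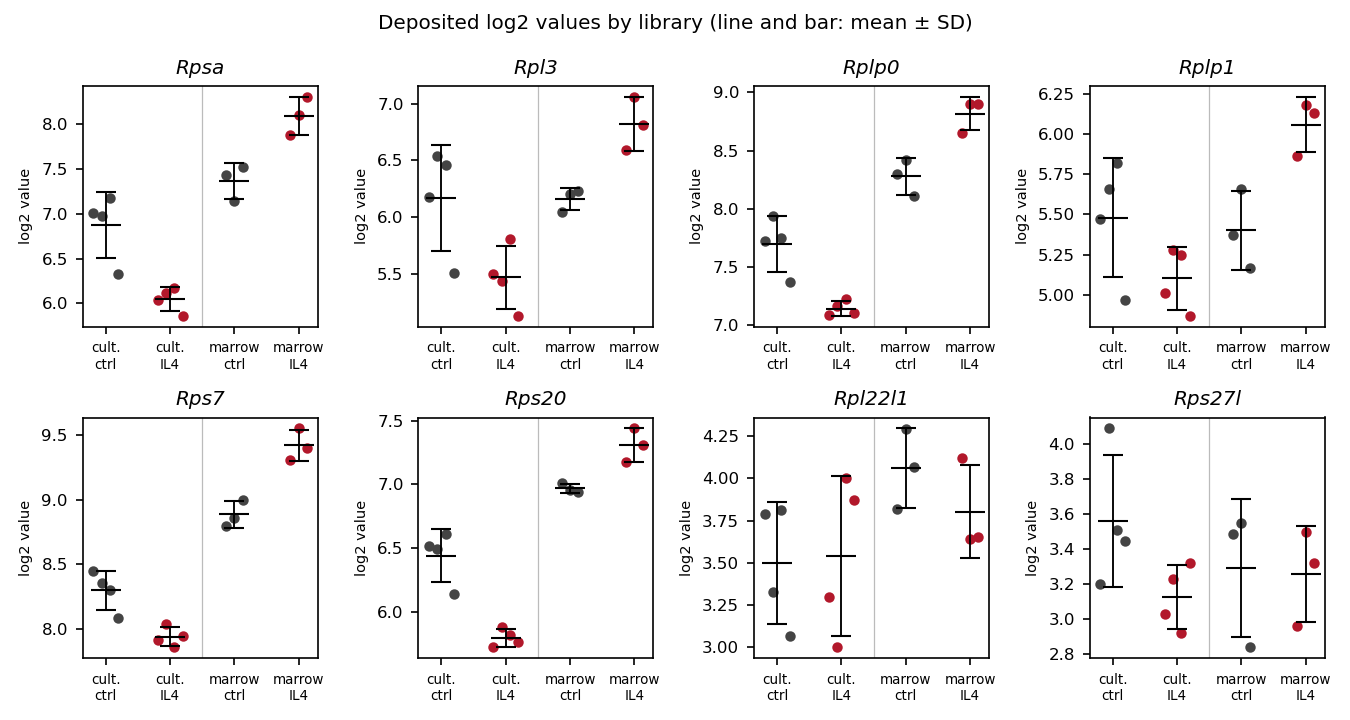
Deposited log2 value (vertical axis, a separate scale for each gene) in every library for 6 members named in the comparisons and the like-named Rpl22l1 and Rps27l; dots are libraries (grey control, red IL4), lines and bars are mean ± SD (n = 4 in culture, n = 3 in marrow). Rpsa, Rplp0, Rps7 and Rps20 have every IL4 library below the controls in culture and above them in marrow, while the groups of Rpl22l1 and Rps27l overlap in both.

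The share of recovered reads that fell on the 57 members with reads gives the same comparison without the gene constants. Culture controls 1 to 4 had shares of 0.958%, 0.946%, 0.971% and 0.780%, and the culture IL4 libraries, in order, 0.810%, 0.834%, 0.815% and 0.768%. Controls 1 to 3 were above every IL4 library, and control 4 lay among them. In marrow it was 1.16%, 1.23% and 1.24% in controls and 1.51%, 1.71% and 1.63% in IL4 libraries. The marrow groups were far apart, 1.21% ± 0.0436 (SD, n = 3) against 1.62% ± 0.101 (n = 3), a ratio of 1.34. The culture means were 0.914% ± 0.0897 (n = 4) and 0.807% ± 0.0278 (n = 4), a ratio of 0.883. Recovered reads cover only the genes in the tables, and the abundant members Rpl13a, Rpl4, Rpl8 and Rps3 are not in these sums.

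**Figure D4:**
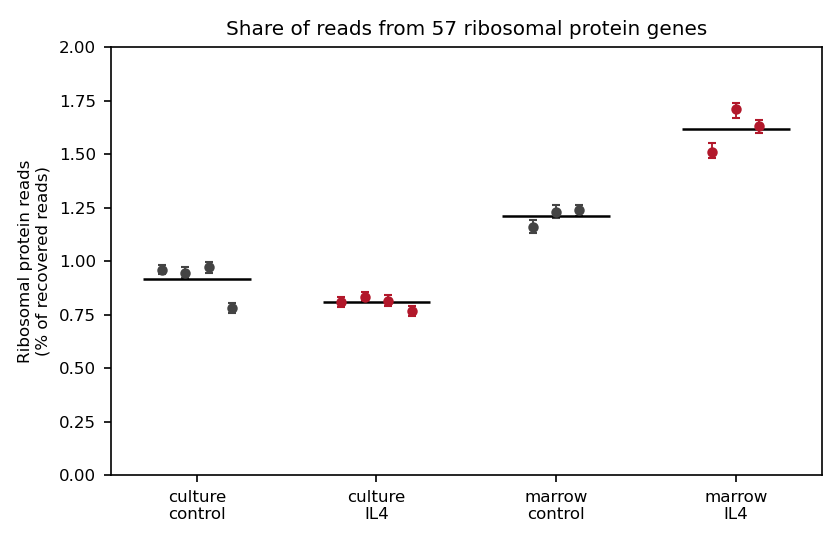
Share of recovered reads (vertical axis, %) from 57 ribosomal protein genes in each library; dots are libraries with exact 95% binomial intervals, which cover counting error only, and horizontal lines are group means. The 3 marrow IL4 libraries (1.51% to 1.71%) lie above the 3 marrow controls (1.16% to 1.24%), and culture control 4 (0.780%) lies among the culture IL4 libraries.

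Small-subunit and large-subunit genes had like medians: -0.33 and -0.33 in culture, 0.38 and 0.36 in marrow. Of 28 small-subunit symbols 9 rose in marrow and 7 fell in culture, and of 33 large-subunit symbols 5 rose and 5 fell, beside 6.7% of all genes that rose in marrow and 32.6% that fell in culture. Genes mutated in Diamond-Blackfan anemia, a failure of red cell production, were measured in 13 of 19 cases. Their median was 0.51 in marrow, where 2 rose (Rps7 and Rps19), and -0.42 in culture, where 2 fell (Rps7 and Rpl18), against the same 6.7% and 32.6% of all genes. Of the proteins at the rim of the exit tunnel 5 of 8 were measured, and none passed in either experiment (medians -0.17 and 0.40). Rpl5, which with Rpl11 carries the 5S RNA, had -0.43 ± 0.30 in culture (adjusted p = 0.276) and 0.58 ± 0.29 in marrow (adjusted p = 0.206).

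The 5 like-named genes gave no call in either experiment. Of all genes 6.7% rose and 11.5% fell in marrow, and 7.96% rose and 32.6% fell in culture. At an unadjusted p below 0.05, 0 passed in culture, against 9.49% of all genes higher and 40.2% lower. In marrow 1 was higher and 0 lower, against 12.9% and 19.6% of all genes. Whether these 5 differ from the other members was not tested. Rpl22l1, a paralog of Rpl22, had log2 fold changes of 0.04 ± 0.27 in culture and -0.26 ± 0.23 in marrow. Rps27l, a p53-inducible paralog of Rps27, had -0.43 ± 0.23 and -0.03 ± 0.29. Rpl36al, a paralog of Rpl36a, had -0.05 ± 0.22 and 0.14 ± 0.19, and Rps19bp1, a partner of Rps19, had -0.17 ± 0.37 and 0.35 ± 0.42 from 5 to 18 reads a library. Rpl7l1, a nucleolar relative of Rpl7, had -0.13 ± 0.16 in culture and 0.59 ± 0.21 in marrow (adjusted p = 0.0779). Its marrow values were 4.08, 4.67 and 4.43 in controls and 4.82, 4.98 and 5.15 in IL4 libraries, without overlap, and it passed after centring (adjusted p = 0.0386).

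Ribosomal genes with other names were looked up as well. Gnb2l1, the older symbol of Rack1, encodes a scaffold on the small subunit and rose by 0.73 ± 0.17 in marrow (adjusted p = 0.0156), while in culture its log2 fold change was -0.30 ± 0.14 (adjusted p = 0.103). Fau, which encodes a ribosomal protein fused to a ubiquitin-like domain, had 0.36 ± 0.22 in marrow (adjusted p = 0.292) and 0.08 ± 0.22 in culture (adjusted p = 0.783).

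The translation machinery beyond the ribosome was examined by lists. Of all genes 6.7% rose and 11.5% fell in marrow, and 7.96% rose and 32.6% fell in culture. Of 10 measured non-ribosomal genes with a TOP sequence, 5 rose in marrow and 0 fell, with a median of 0.56. They were the snoRNA host genes Gas5 (1.02 ± 0.15, adjusted p = 0.00184), Snhg1 (0.95 ± 0.21, adjusted p = 0.0129), Snhg5 (0.84 ± 0.19, adjusted p = 0.0138) and Snhg6 (0.87 ± 0.23, adjusted p = 0.0285), and Tpt1 (0.47 ± 0.13, adjusted p = 0.0298). In culture this list had 1 rise, Tpt1 (0.65 ± 0.11, adjusted p = 0.00171), and 1 fall, Nap1l1 (-1.46 ± 0.16, adjusted p = 0.000127). Of 7 elongation factors 3 rose in marrow and 0 fell, among them Eef1a1, which brings aminoacyl-tRNA to the ribosome (0.42 ± 0.12, adjusted p = 0.04). In culture 4 fell, Eef1a1 (-0.44 ± 0.11, adjusted p = 0.0107) and the translocase Eef2 (-0.35 ± 0.10, adjusted p = 0.0197) among them, and 1 rose, Eif5a (0.38 ± 0.11, adjusted p = 0.0181). After centring, 0 elongation factors fell in culture, against 12.7% of all genes.

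Of 37 ribosome biogenesis genes 6 rose and 0 fell in marrow, with a median of 0.32, and 2 rose and 5 fell in culture, with a median of -0.23. Ncl, the nucleolar protein nucleolin, rose in marrow by 0.64 ± 0.12 (adjusted p = 0.00703), and Npm1 had 0.48 ± 0.19 (adjusted p = 0.112). Of 37 initiation factors 4 rose and 0 fell in marrow (median 0.06), and 7 fell and 0 rose in culture (median -0.24). Of all genes 6.7% rose and 11.5% fell in marrow, and 7.96% rose and 32.6% fell in culture. Both lists thus fell in culture in a smaller share than all genes. Of 15 genes of the mTORC1, LARP1, S6 kinase and Myc list, 0 fell in marrow and 1 rose, near the share of all genes. That gene was Myc, a transcription factor that drives ribosome production (1.17 ± 0.24, adjusted p = 0.0093), and it rose in culture too (1.05 ± 0.24, adjusted p = 0.00641). Mtor itself had -0.31 ± 0.14 in culture (adjusted p = 0.0974) and -0.36 ± 0.18 in marrow (adjusted p = 0.213).

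Members that rose were found with and without the start-site run. In marrow 4 of the 22 members with a pyrimidine run rose (median 0.36), 5 of the 22 without one (median 0.27) and 5 of the 17 with no promoter entry (median 0.42). Rps6, Rps9 and Rps18 are among the first group, and Rpsa and Rplp0 among the second. The run was sought only in the window at the annotated start. Members without it there may still have mRNAs that begin with a TOP stretch. Rplp2 carries the run and had a marrow log2 fold change of -0.06 ± 0.15. The difference between these groups was not tested.

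Calls were confined to the better-covered members. Mean reads per library ranged from 4.57 to 655 over the 57 members, with a median of 48.0 against 33.8 for all genes. The 16 members with a mean under 20 reads gave 0 rises and 0 falls, with a median SE of 0.35 in each experiment, while the other 45 had a median SE of 0.17 in culture and 0.16 in marrow. Some of the largest marrow values belonged to members with a large SE and did not pass: Rps23 had 1.0 ± 0.37 (adjusted p = 0.0923) and Rpl35 had 0.94 ± 0.59 from 2 to 11 reads (adjusted p = 0.313).

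Many ribosomal protein genes have processed pseudogenes, and reads from shared sequence can be lost or split in counting. The share of 50-base words of a member's transcripts that occur in another gene of the GENCODE M21 annotation ranged from 0.0% (as in Rps19bp1) to 95.1% (Rpl35). The 12 members at 70% or more had a median of 26.0 mean reads, the 22 from 30% to under 70% had 53.5, and the 23 under 30% had 63.9. Across the 57 members Spearman's rho between sharing and mean reads was -0.32, a description over genes of the same libraries. The members that rose in marrow were spread over these classes: 2 of 12, 5 of 22 and 5 of 23. Rps9 (12.4% shared, 0.39 ± 0.12, adjusted p = 0.0455) and Rps3 (2.8% shared, 0.49 ± 0.11, adjusted p = 0.0166) rose with little shared sequence, and Rps6, the target of the S6 kinases, rose with 84.6% shared (0.49 ± 0.13, adjusted p = 0.0305).

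**Figure D5:**
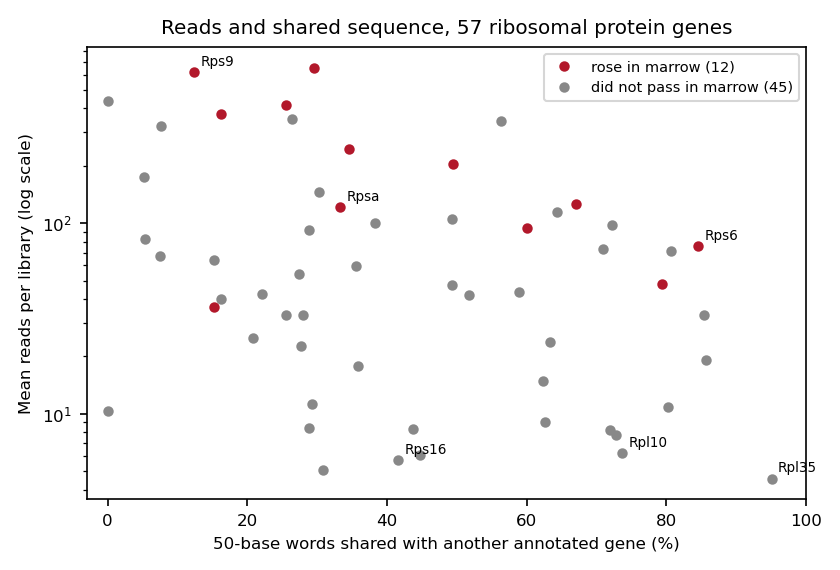
Mean reads per library (vertical axis, log scale) against the share of 50-base words found in another annotated gene (horizontal axis, %) for the 57 ribosomal protein genes with recovered reads; red marks the 12 of them that rose in marrow. Red dots lie in the upper part of the plot and span low to high sharing, and Rpl35 at 95.1% has the fewest reads (4.57).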

How the data were processed

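Gene expression of 14 mouse libraries was measured by RNA sequencing. The labels' protocols name the Illumina TruSeq v2 RNA kit, and the submitters' processing notes list mm10 as the genome build and TopHat2 (version 2.0.13) and bcl2fastq as tools. The counter, its use of strand and the normalization: not given in the sources used here. The authors deposited, for each experiment, a table of log2 values per gene and library with their own fold change (a linear ratio), p-value and q-value per gene; these last 3 were not used. The values themselves show their make-up: log2 of whole reads plus 0.5, shifted by constants of the gene and of the library. Solving for these gave whole reads in 9393 of 9474 genes (99.1%, largest residual 0.000612 on the log2 scale where reads were under 100). Every column of per-sample values was used (0 left out).

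The planned design also covered linear values; since the deposited values are log2, limma 3.58.1 (R 4.3.3) with a variance trend was run on them directly within each table (residual degrees of freedom 6 in culture, 4 in marrow), and for the interaction over all libraries (10). P-values are two-sided and Benjamini-Hochberg adjusted over the 9474 genes; every adjusted p is from limma with a threshold of 0.05, and the fit was tested on simulated data. Rose and fell mean past that threshold. Errors are SE of log2 fold changes or SD of group means. No libraries of a group differed by as little as sampling noise. Alternatives were library centring, quantile normalization, scaling on summed reads, no variance trend, a minimum mean of 10 reads, leaving out each library, a replicate block and, added after seeing the data, read-count weights and leaving out both culture libraries numbered 4. Named members, by rule, are the 6 largest rises and falls past the threshold per comparison, the 4 smallest interaction p-values, like-named genes and the stalk; a few members that enter all counts are not reported here by name; other genes named with values were chosen after these were seen. The members and lists were chosen with earlier results of these data known. The list of canonical ribosomal proteins holds 79 genes, without Rack1. Intervals on read shares are exact 95% binomial.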

Additional observations from a re-analysis of the deposited data

Results flagged for a closer look

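In culture, 8 of 122 groups of 4 libraries held a member with 1 library far from the other 3 on the log2 scale; chance alone gives about 1 in 20. In 5 of these the library was culture control 4, always the lowest: Rps2 at 7.28, Rps19 at 2.12, Rps9 at 8.23, Rpl4 at 9.26 and Rpl35 at -0.33, the last from 2 reads. The nearest other controls were at 7.91, 3.33, 8.53, 9.53 and 1.0. Rpl35a was lowest in culture control 3, at 0.05 against 1.47 for the nearest. Among the culture IL4 libraries, Rpl13 was lowest in library 4, at 2.83 against 3.88, and Rpl8 in library 3, at 12.62 against 12.89.

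The response to IL4 differed between culture and marrow, by the interaction test, in 24 members, each with the lower log2 fold change in culture; 21 of them are given here. Among large-subunit genes the culture response minus the marrow response was -1.39 ± 0.42 (SE) for Rpl18, -1.36 ± 0.32 for Rpl3, -1.12 ± 0.36 for Rpl15, -1.10 ± 0.19 for Rplp0, -1.03 ± 0.28 for Rplp1 and -0.97 ± 0.19 for Rpl32. The values were -0.81 ± 0.17 for Rpl13a, -0.81 ± 0.16 for Rpl4, -0.73 ± 0.21 for Rpl7, -0.70 ± 0.21 for Rpl8 and -0.69 ± 0.24 for Rpl29. Among small-subunit genes they were -1.56 ± 0.26 for Rpsa, -0.99 ± 0.18 for Rps20, -0.97 ± 0.20 for Rps4x, -0.89 ± 0.16 for Rps7 and -0.85 ± 0.25 for Rps2. The remaining ones were -0.81 ± 0.23 for Rps24, -0.80 ± 0.21 for Rps6, -0.76 ± 0.15 for Rps3, -0.67 ± 0.15 for Rps9 and -0.66 ± 0.14 for Rps14. Of these, Rpl15, Rpl29, Rpl8 and Rps24 passed in neither experiment alone.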

How the results depend on the processing

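With each library centred on its median, 1 member (Rpl41) rose and 0 fell in culture. The culture median log2 fold change turned from -0.33 to 0.03, and the marrow median was 0.48. With the same centring 14 members passed the interaction test with a lower log2 fold change in culture than in marrow. With quantile normalization 5 members fell in culture (14% of all genes), with a median of -0.02. Under it 15 passed the interaction test with a lower log2 fold change in culture (9.65% of all genes). Scaling on summed reads gave a culture median of -0.14. Without a variance trend 5 members rose in marrow (4.79% of all genes). Leaving out each library in turn gave 0 to 1 rise in culture (Rps23, without control 2), 8 to 19 falls in culture (19 without control 4, 33.8% of all genes) and 3 to 14 rises in marrow (3 without control 1, 4.67% of all genes). Without marrow control 1 or IL4 library 3, Rpl3, Rplp0, Rplp1, Rps18 and Rps19 no longer passed (adjusted p 0.0513 to 0.12). In all alternatives 0 members fell in marrow and 0 passed the interaction test with a higher log2 fold change in culture. For the single named members 421 outcomes kept their side of the threshold, 53 lost it and 5 gained it. Why the counts moved with the scaling or the left-out library was not tested.

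Deviations from the group means in same-numbered libraries correlated weakly over all genes, at -0.045 to 0.059. With 3 libraries per marrow group these values cannot exclude that replicate numbers pair the marrow libraries. Each marrow library correlated best with its own number (0.0264 to 0.059); in culture this did not hold for every library. With the replicate number as a block, 11 members fell in culture and 14 rose in marrow (28.9% and 7.09% of all genes). With that block 22 passed the interaction test with a lower log2 fold change in culture (14.3% of all genes). Other pseudocounts were not run, since the values are log2 already.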

Other observations

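Mitochondrial ribosomal protein genes serve the separate ribosome of the mitochondrion. Of 76 measured, 2 rose and 3 fell in marrow, with a median log2 fold change of 0.02. In culture 1 rose and 15 fell, with a median of -0.36. Of all genes 6.7% rose and 11.5% fell in marrow, and 7.96% rose and 32.6% fell in culture. Whether they differ from the cytosolic set was not tested. Mrps6 rose in marrow (limma adjusted p = 0.00851) from 0 to 3 reads in controls to 9 to 16 in IL4 libraries, so few that the size of its fold change depends on the 0.5 added to the reads. In culture it had 0.18 ± 0.55 (SE, adjusted p = 0.818). Mrpl28 and Mrpl37 fell in both experiments, by -1.33 ± 0.24 (adjusted p = 0.00212) and -1.37 ± 0.20 (adjusted p = 0.000527) in culture and by -0.92 ± 0.18 (adjusted p = 0.0085) and -0.72 ± 0.19 (adjusted p = 0.0321) in marrow.

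Among initiation factors, Eif3c (0.77 ± 0.14, adjusted p = 0.00566) and Eif2b2 (1.09 ± 0.27, adjusted p = 0.0228) rose in marrow. Eif4g3 (-0.80 ± 0.12, adjusted p = 0.000666), Eif4b (-0.61 ± 0.11, adjusted p = 0.00181) and Eif2a (-0.98 ± 0.17, adjusted p = 0.00188) fell in culture. Of the Rps6k kinase genes on the lists, only Rps6ka1 fell in culture (-1.24 ± 0.19, adjusted p = 0.000777). Rps6kb1 (-0.31 ± 0.22, adjusted p = 0.285), Rps6kb2 (-0.86 ± 0.37, adjusted p = 0.0863) and Rps6ka3 (0.27 ± 0.13, adjusted p = 0.117) did not pass there. Rrs1, a factor of large-subunit assembly, rose in both experiments, by 0.84 ± 0.22 in culture (adjusted p = 0.0128) and by 1.08 ± 0.26 in marrow (adjusted p = 0.019). Across the 61 cytosolic members, Spearman's rho between the culture and marrow log2 fold changes was -0.21, a description over genes from experiments that share no library.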
